A study of Mus musculus with 10 samples.

Results

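The 79 genes described here encode proteins of the cytosolic ribosome, the particle that translates mRNA outside the mitochondria. They were taken from a table of 35395 gene identifiers as every row whose symbol is RPL or RPS with a number (and at most one letter A, X or L), RPLP0, RPLP1, RPLP2 or RPSA. The same 79 rows stood in each of the 4 comparisons of the table. Of them, 32 encode proteins of the small subunit and 47 proteins of the large subunit. Processed copies of these genes, which carry a P in the symbol, are not members and are counted apart.

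The labels describe 10 samples of RNA from the epididymal fat pad of male C57BL/6 mice. Obese mice on a high-fat diet received adenovirus by injection into this fat pad 2 times a week for 4 weeks, carrying IGF2 behind a CMV promoter in the Ad-IGF2 group (2 samples) or GFP in the Ad-GFP group (3 samples). Mice aged 3 to 4 weeks received a lentivirus through the tail vein, with a hairpin against IGF2 in the IGF2-RNAi group (2 samples) or a control hairpin in the NC-RNAi group (3 samples). The authors' deposited table leaves its 4 comparisons unnamed, and all of its 35395 identifiers are human, so no comparison was tied to a group of mice and no effect of IGF2 is given. They are numbered here by their place in the table, and a positive log2 fold change means higher in the numerator.

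The 4 comparisons rest on 8 libraries in 4 sets of 2: the first and second comparison share the first numerator set, whereas the third and the fourth share the second numerator set. The first and the third comparison share the first reference set, and the second and the fourth share the second reference set. Whole reads of each library were recovered from the base means of 3 comparisons for 26754 of the 26755 identifiers listed in all 4, and these reads predicted the base means of the remaining comparison to a relative error of at most 1.13e-09. Libraries are numbered 1 and 2 within a set, and the numbers carry no meaning. Recovered reads summed to 28414414 and 16268334 in the first numerator set, 14625802 and 12106514 in the second numerator set, 20979778 and 16718372 in the first reference set, and 15858817 and 15953030 in the second reference set. Nothing in the table says whether the libraries of a set came from separate animals or cultures, and the design text speaks of repeat sequencing, so p-values measure the spread between these libraries, which may be technical. Genes that mark fat were nearly silent: 5 of 7 adipocyte markers had any read, with 3 to 37 reads summed per library. Of the epithelial markers, the keratins KRT8 and KRT18 had 3432 to 13696 and 1561 to 5170 reads per library. The epithelial markers EPCAM, CDH1 and KRT19 were nearly silent too, with 0 to 7, 1 to 10 and 2 to 24. COL1A1, a marker of fibroblasts and stroma, had 190 to 1319. Other markers of that kind, COL1A2, COL3A1 and PDGFRA, had only 2 to 10, 0 to 42 and 1 to 16. The label of fat tissue is not borne out by the adipocyte markers, and the markers as a whole name no other cell type. The libraries are therefore named by their sets only.

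The ribosome is built from ribosomal RNA and many kinds of protein, most of them present once per particle. The genes belong to the TOP mRNAs, whose 5′ end begins with a run of pyrimidines through which mTOR and LARP1 set their translation and stability, so their mRNAs usually change together. Several of the proteins also act outside the ribosome: RPL5 and RPL11 bind MDM2 with 5S ribosomal RNA, and RPS6 is the classical target of the S6 kinases.

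The members together took 3.55% and 3.79% of the reads in the first numerator set, 3.803% and 4.08% in the second numerator set, 3.89% and 4.16% in the first reference set, and 4.19% and 5.504% in the second reference set. Library 2 of the second reference set stands above all others, and the other 7 lie within 3.55% to 4.19%. Counting error is at most 0.0112 percentage points either side of a share (95% Wilson interval), which covers counting error only, since reads of PCR products are not independent molecules. The split between the subunits hardly moved: small-subunit genes made up 38.8% to 40.2% of the members' reads in the 8 libraries. RPL3L, the paralogue of RPL3 known from muscle and heart, had 0 to 4 recovered reads per library, no adjusted p in any comparison, and is left out of what follows. The other 78 members had a base mean of at least 2 CPM (scaled to the summed base means) in every comparison. In bulk RNA, fewer cells of a type and less RNA per cell cannot be told apart.

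**Figure D1:**
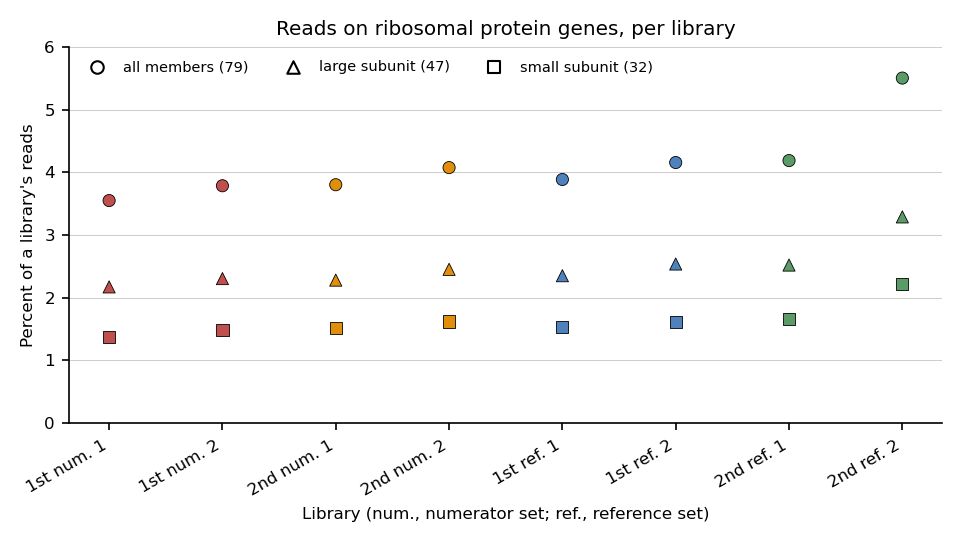
Percent of each library's reads that fell on ribosomal protein genes, for all 79 members (circles), the 47 of the large subunit (triangles) and the 32 of the small subunit (squares). Library 2 of the second reference set, at 5.504% for all members, lies above the other 7 libraries, which span 3.55% to 4.19%.

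To set libraries side by side, reads were divided by size factors computed over all 8 libraries, and these normalised reads are the levels given below. Library 2 of the second reference set had the highest level for 73 of the 78 members, and library 1 of the first numerator set had the lowest for 50. The median member lay 0.50 above its own 8-library mean (log2) in library 2 of the second reference set and fell by 0.30 below it in library 1 of the first numerator set. Between the 2 libraries of the second reference set, 77 of 78 members were higher in library 2, by a median of 0.46 (log2), while 49.8% of all 13383 genes of at least 2 CPM were higher there. Within the other 3 sets the median difference between the libraries was 0.11 to 0.21. For the fourth comparison, the counts of members and the members named are given also without this library.

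**Figure D2:**
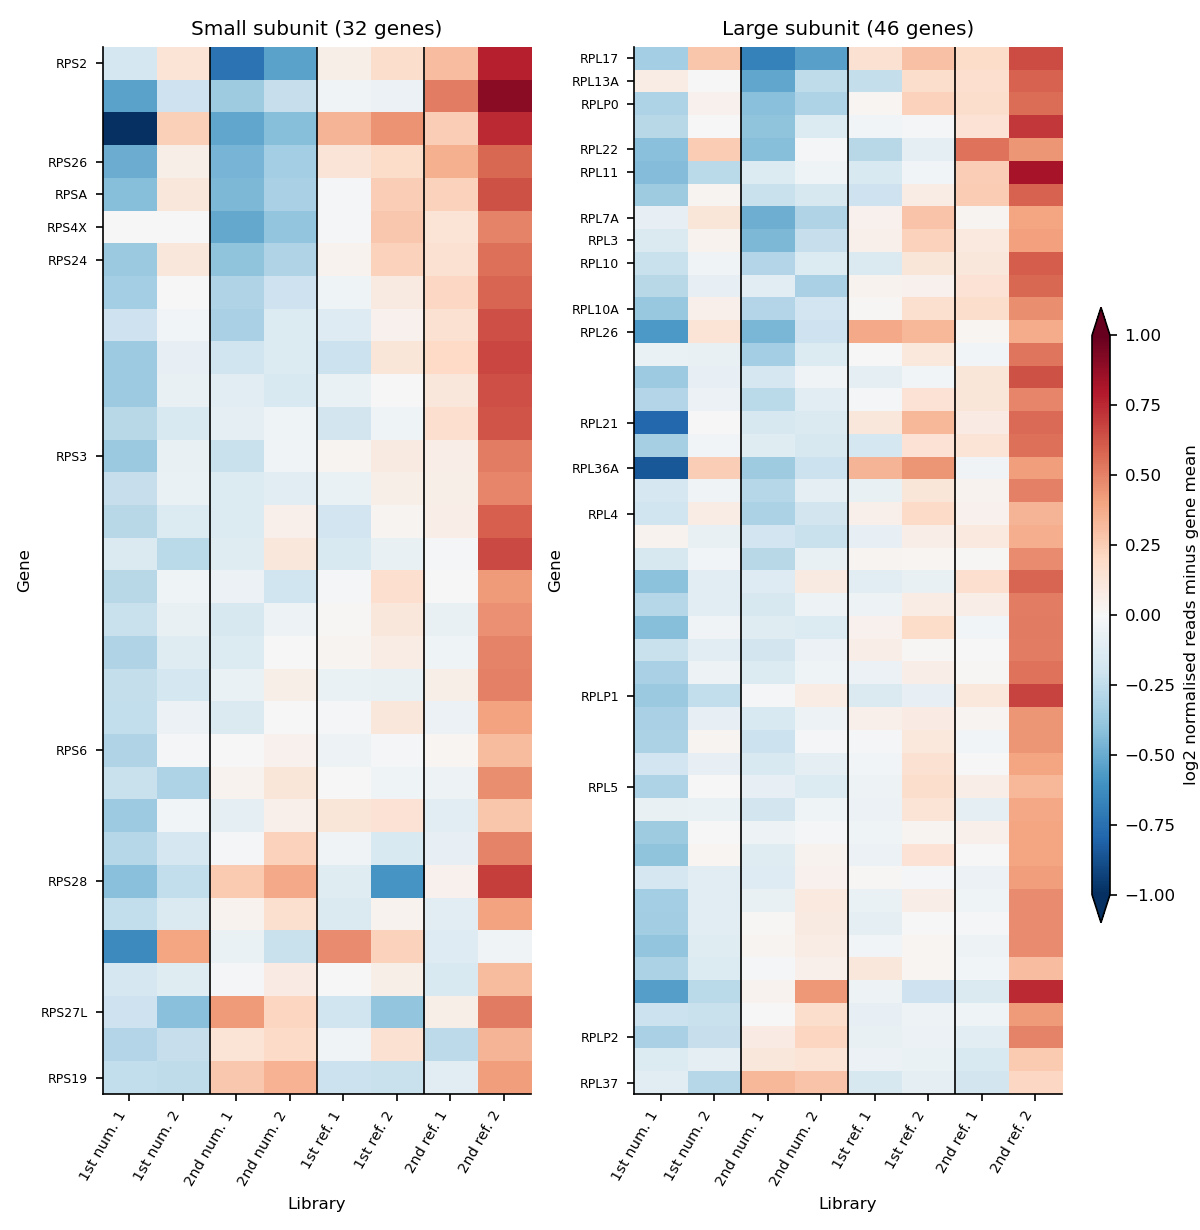
Level of 78 ribosomal protein genes (rows, by subunit, with the lowest fold change of the fourth comparison at the top and genes discussed in the text named) in the 8 libraries (columns; num., numerator set; ref., reference set), as log2 normalised reads minus the gene's mean over the 8 libraries. The last column, library 2 of the second reference set, is the highest for 73 genes, and RPS2, RPL17 and RPS4X are lowest in the second numerator set while RPS19, RPS27L and RPL37 are higher there than in the first reference set.

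In the third comparison, the second numerator set against the first reference set, the ribosomal protein genes split: 14 fell and 3 rose in the authors' deposited table (adjusted p under 0.05), and the other 61 tested did not pass. Over all 22550 genes tested, the authors' deposited table called 16.1% lower and 14.8% higher, and over the 13512 of at least 2 CPM it called 26.7% lower and 16.9% higher. The 14 and 3 of 78 members are smaller shares than those of genes of at least 2 CPM. The median member had a log2 fold change of −0.19, against −0.16 for the median of all genes of at least 2 CPM in the authors' deposited table. Members ranged from −0.92 to 0.61 in the authors' deposited table, with an SD of 0.30 between members and standard errors of 0.14 at the median. In 47 members both numerator libraries were below both reference libraries and in 9 both were above, placings that 34.2% and 38.1% of 22048 genes shared. On the recovered reads limma called 15 members lower and 4 higher, when it called 30.8% and 19.8% of 13526 genes. Single libraries weigh on these counts: limma called 4 members lower and 0 higher without library 1 of the second numerator set, beside 15.9% and 10.4% of all genes. It called 12 lower and 1 higher without library 2 of that set, beside 25.2% and 15% of genes, and 22 lower and 3 higher without library 1 of the first reference set, beside 28.6% and 19.7% of genes.

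The fall with the smallest p was that of RPS2, a protein near the entry of the mRNA channel of the small subunit. RPS2 had 14099 and 16266 normalised reads in the second numerator set, against 24527 and 26604 in the first reference set. Both numerator libraries lie well below both reference libraries. The log2 fold change in the authors' deposited table was −0.80 ± 0.14 (SE, n = 2 libraries a side), with an adjusted p of 3.23e-07. RPS2 stayed called in limma fits of the recovered reads without each of the 4 libraries, with the adjusted p from limma at most 0.0303.

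RPSA, the laminin receptor protein of the small subunit, had 8737 and 9549 normalised reads in the second numerator set, against 11779.6 and 14137 in the first reference set (log2 fold change −0.55 ± 0.15, adjusted p 0.00133 in the authors' deposited table). RPS4X, a small-subunit protein encoded on the X chromosome, had 7904 and 8578 in the second numerator set, against 11151 and 13594 in the first reference set (−0.63 ± 0.15, adjusted p 0.000207 in the authors' deposited table). RPLP0, the base of the stalk that recruits elongation factors, had 21707 and 23385 in the second numerator set, against 29324 and 34009.8 in the first reference set (−0.54 ± 0.14, adjusted p 0.000943 in the authors' deposited table). In none of these genes do the sets overlap. Each of the 3 calls was lost in the limma fit without library 1 of the second numerator set, where limma's adjusted p was 0.0931 for RPSA, 0.0603 for RPS4X and 0.112 for RPLP0. RPL7A, RPL3, which reaches toward the peptidyl transferase centre, RPS24 and RPL26 fell as well, by 0.61, 0.53, 0.54 and 0.73 on the log2 scale in the authors' deposited table. These 4 calls too were lost in limma without that library, with adjusted p from 0.0511 to 0.138. RPS26, near the exit of the mRNA channel, fell by 0.60 ± 0.16 with 1031 and 1127 normalised reads in the second numerator set, against 1556 and 1615 in the first reference set (adjusted p 0.0014 in the authors' deposited table). RPL17, which has few reads, fell by 0.88 ± 0.23 in the authors' deposited table, with 243 and 267 normalised reads in the second numerator set, against 433 and 478 in the first reference set. RPL17, RPS2 and RPS26 are among the 4 members called lower in limma without any one library. RPL36A, RPL4 and RPL10A also fell, and lost their calls once folds were centred on the median gene.

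RPS19, whose mutations cause Diamond-Blackfan anaemia, went the other way, with 17052 and 17960.0 normalised reads in the second numerator set, against 12178 and 12104 in the first reference set. Its log2 fold change was 0.48 ± 0.13 (adjusted p 0.00164 in the authors' deposited table). RPS27L, a paralogue of RPS27 that p53 induces in human cells, had 2867 and 2479.5 in the second numerator set, against 1857 and 1625 in the first reference set (0.57 ± 0.16, adjusted p 0.00214 in the authors' deposited table). RPL37, a short zinc-binding protein of the large subunit, had 8067 and 7801 in the second numerator set, against 5742 and 6032 in the first reference set (0.38 ± 0.14, adjusted p 0.0184 in the authors' deposited table). All 3 genes are above the reference in both numerator libraries. With 1 library of the second numerator set left out, limma called none of them (without library 1) or RPS27L alone (without library 2), and RPL37 was also lost without library 1 of the first reference set (limma's adjusted p 0.0679). RPS28 had the highest fold change, 0.61 ± 0.30, on 129 to 315 normalised reads per library, and an adjusted p of 0.109 in the authors' deposited table.

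The level of the whole family in the third comparison moves with the scaling, as that of all genes does. By share of total reads it was 3.803% and 4.08% in the second numerator set, against 3.89% and 4.16% in the first reference set, which overlap. Scaling each library to its total reads moved the median of all 13526 genes fitted with limma to 0.03, against −0.15 with the deposited size factors, and the median member to −0.01, against −0.19. Relative to the median gene, the median member thus differed by little in either scaling, and limma called 12 members lower and 7 higher with total reads, beside 21% and 25.8% of all genes. Of the 17 members called in the deposited table, 11 of the lower and all 3 of the higher ones passed under every scaling and filter tried.

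**Figure D3:**
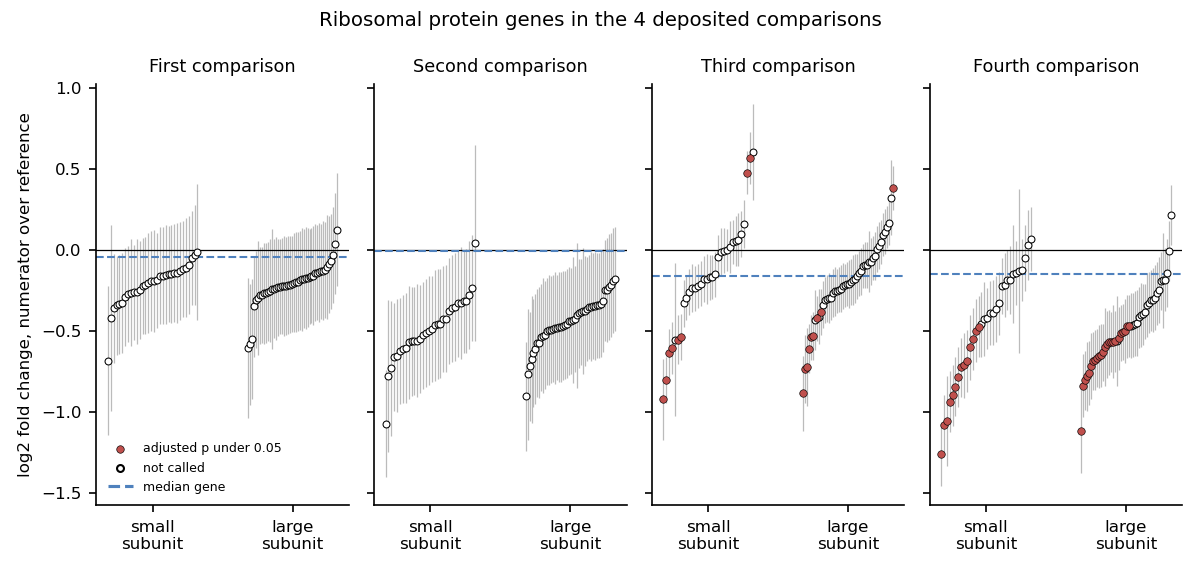
Deposited log2 fold change of 78 ribosomal protein genes in the 4 comparisons (numerator over reference), by subunit and ordered by value within each; bars are the deposited standard errors, filled points have an adjusted p under 0.05, and the dashed line is the median of all genes of at least 2 CPM. No point is filled in the first 2 comparisons, 17 are in the third and 38, all below 0, in the fourth.

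In the fourth comparison, the second numerator set against the second reference set, 38 of 78 members fell and none rose in the authors' deposited table, where no member was higher at an unadjusted p under 0.05 either and which called 17.5% of all 22151 genes tested lower and 17.2% higher. Of 13599 genes of at least 2 CPM the authors' deposited table called 27.6% lower and 19.3% higher. The median member had a log2 fold change of −0.47, against −0.15 for all genes of at least 2 CPM in the authors' deposited table. For 56 members both numerator libraries were below both reference libraries, and for 1, RPL37, both were above. Among all tested genes with recovered reads, 35.2% and 38.7% were placed in these ways. Beside this result stands library 2 of the second reference set: limma on the recovered reads called 39 members lower and none higher with all libraries, when it called 31.6% of 13622 genes lower and 22.6% higher. Without that library limma called 25 members lower and 2 higher, RPL37 and RPS19, when it called 29.7% of genes lower and 20.8% higher. The median member was then at −0.22 in limma, against −0.14 for the median of all genes fitted. When library 1 of that set was left out instead, the median member was at −0.70, against −0.13. Without library 1 of the second numerator set limma called 9 members lower, beside 17.4% of genes, and without library 2 of that set 21, beside 24.7% of genes. Both are shares near or below those of genes at large.

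RPS2 had 14099 and 16266 normalised reads in the second numerator set, against 29188 and 40409 in the second reference set. It fell by 1.26 ± 0.20 on the log2 scale, a 2.39-fold difference, with an adjusted p of 2.48e-09 in the authors' deposited table. Without library 2 of the second reference set its log2 fold change in limma was −1.002.

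RPS26, RPSA and RPS4X fell by 0.93 ± 0.19, 0.90 ± 0.19 and 0.84 ± 0.18 in the authors' deposited table, and with RPS2 they are among the 5 members with the smallest p. With library 2 of the second reference set left out, they were at −0.82, −0.67 and −0.65 in limma, and RPL17 and RPLP0 at −0.85 and −0.59. RPSA had 8737 and 9549 normalised reads in the second numerator set, against 14006 and 18557 in the second reference set, and RPS4X had 7904 and 8578 in the second numerator set, against 12409 and 15854 in the second reference set. RPL17 fell by 1.11 ± 0.26 on few reads, in the authors' deposited table. RPLP0 fell by 0.80 ± 0.18 (adjusted p 8.49e-05 in the authors' deposited table), with 21707 and 23385 in the second numerator set, against 32670.0 and 42597 in the second reference set. RPS2, RPS26, RPSA, RPS4X, RPL17 and RPLP0 are among the 8 members that stayed called lower in limma without each of the 4 libraries and under every scaling and filter tried. Of the 38, 21 passed under every scaling and filter tried with all libraries. RPL13A, known from an inhibitory complex on inflammatory mRNAs, had 12314 and 14807 in the second numerator set, against 19840.5 and 26529 in the second reference set. It fell by 0.84 ± 0.19 in the authors' deposited table and was at −0.61 in limma without library 2 of the second reference set. RPL22, whose paralogue RPL22L1 can take its place, had 1274 and 1689.6 in the second numerator set, against 2491 and 2315 in the second reference set, and fell by 0.76 ± 0.20 in the authors' deposited table. The calls of RPL13A and RPL22 were lost in limma without library 1 of the second numerator set, with adjusted p of 0.0603 and 0.135. RPL22 was at −0.82 in limma without library 2 of the second reference set, and it is one of the few members that this library does not hold at its highest.

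The selection stated in the labels, an absolute log2 fold change above 1 with p below 0.05 before adjustment, took 4 members in the fourth comparison, RPS2 and RPL17 among them, all lower. It took 1 member, lower, in the second comparison and none in the first and the third. The share of all genes that this selection took is not given here, so the counts cannot be set against genes at large.

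**Figure D4:**
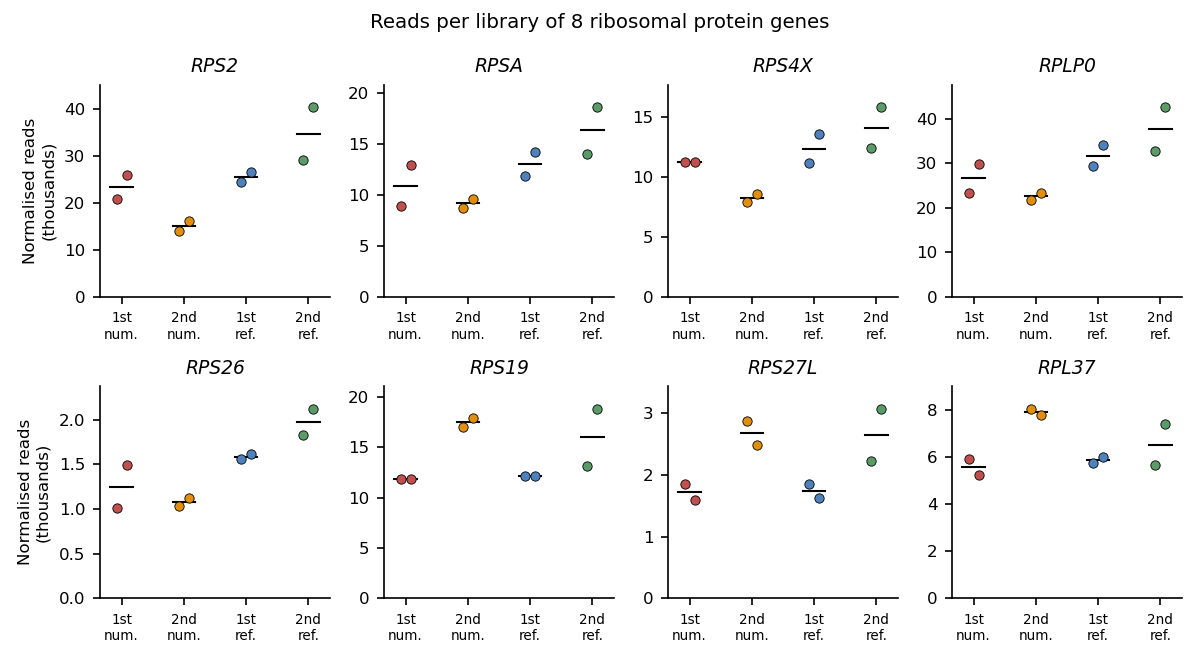
Normalised reads (axes start at 0) of 8 ribosomal protein genes in each library of the 4 sets, 2 points a set with their mean as a line (num., numerator set; ref., reference set). RPS2, RPSA, RPS4X, RPLP0 and RPS26 are lowest on average in the second numerator set, and RPS19, RPS27L and RPL37 are higher in the second numerator set than in the first reference set.

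In the second comparison, the first numerator set against the second reference set, no member passed the test in the authors' deposited table, which called 0.262% of 17205 genes lower and 0.558% higher. The median member had a log2 fold change of −0.46, with 77 of 78 members below 0, beside a median of −0.00 over genes of at least 2 CPM in the authors' deposited table. At an unadjusted p under 0.05, 4 members were lower in that table and 2 in limma on the recovered reads. The share of all genes at that p is not given here, so these counts cannot be set against genes at large. After adjustment limma called no member, when it called 0.0153% of genes lower and 0.0229% higher. Standard errors were larger here, 0.33 at the median against 0.20 in the fourth comparison in the authors' deposited table. RPL11 had 8312 and 9294 in the first numerator set, against 13281 and 19835 in the second reference set (−0.90 ± 0.34, adjusted p 0.255 in the authors' deposited table). Without library 2 of the second reference set the median member in limma was at −0.22, and without library 2 of the first numerator set limma called 20 members lower, beside 13.8% of all genes. Without library 1 of that set it called 1 member lower, beside 1.55% of genes. By coding length, members under 300 bases had a median log2 fold change of −0.47 here, against −0.41 for other genes. Members from 300 to under 450 bases had −0.48, against −0.35, and those from 450 to under 600 bases −0.45, against −0.24. Longer members had −0.37 from 600 to under 900 bases, against −0.19, and −0.40 from 900 to under 1500 bases, against −0.07. The part of length was not tested. In 60 members both numerator libraries lay below both reference libraries, a placing that 23.1% of 17201 genes shared, and in none were both above, against 22.5% of genes.

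In the first comparison, the first numerator set against the first reference set, no member passed either, in a table that called 0.0258% of 19371 genes in each direction. No member had an unadjusted p under 0.05 in the authors' deposited table or in limma. Members leaned low by little, with a median of −0.20 and 76 of 78 below 0, against −0.04 for genes of at least 2 CPM in the authors' deposited table, and the median standard error was 0.30. RPL36A and RPL21 were among the 3 lowest fold changes, at −0.60 and −0.58, and the highest were those of RPL22, RPL13A and RPS28, 0.13, 0.04 and −0.01, in the authors' deposited table. In 45 members both numerator libraries were below both reference libraries, as in 15.6% of 19359 genes, and in none were both above, against 16.3% of genes. Without library 1 of the first numerator set the median member in limma was at −0.09. Without library 2 of that set it was at −0.33, with 5 members called lower, a smaller share than the 12.8% of all genes called lower in that fit.

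Over all genes, the 2 libraries of the first numerator set differed more than those of any other set, whereas for the members those of the second reference set did. Over 13383 genes the reads of the first numerator set differed by a chi-square of 154 per gene, against 10.4 to 29.7 in the other 3 sets, where 1 would be sampling noise.

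The sets of one kind can be set against each other through the comparisons that share libraries. Taken through the first reference set, the log2 difference of the second minus the first numerator set had a median of 0.04 over 78 members, and through the second reference set −0.00, while the median of all genes of at least 2 CPM was −0.16 and −0.19. Through the first reference set, members ranged from −0.66 to 0.62. A limma fit of all 8 libraries called 0 members between the numerator sets, when it called 9.92% of 13361 genes higher and 10.5% lower. Before adjustment 4 members were higher and 2 lower at p under 0.05, and no share of all genes at that unadjusted p is given here. Without library 1 of the first numerator set, limma called 2 members higher and 3 lower, beside 14.5% and 19.8% of all genes. The second minus the first reference set had a median of 0.22 through the first numerator set and 0.26 through the second, with 73 and 74 of 78 members above 0. In limma over the 8 libraries this median was 0.23, with 0 members called, beside 0.112% of all genes called higher and 0.337% lower. Before adjustment 9 members were higher at p under 0.05, and the share of all genes at that unadjusted p is not given here. Without library 1 or library 2 of the first numerator set limma called 3 members higher, beside 4.67% and 4.66% of genes. The median was 0.01 without library 2 of the second reference set and 0.46 without library 1 of that set.

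The stalk proteins did not move as one. RPLP1 had 17296 and 18419 normalised reads in the second numerator set, against 15830.1 and 16478 in the first reference set (log2 fold change 0.10 ± 0.13, adjusted p 0.648 in the authors' deposited table). RPLP2 had 9351 and 10254 in the second numerator set, against 8393 and 8501 in the first reference set (0.17 ± 0.14, adjusted p 0.391 in the authors' deposited table), while RPLP0 fell. The difference between RPLP0 and its partners was not tested. In the fourth comparison RPLP1 and RPLP2 had log2 fold changes of −0.45 ± 0.20 and −0.14 ± 0.21, and neither passed in the authors' deposited table. In limma without library 2 of the second reference set they were at −0.13 and 0.20, and neither passed.

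Among members with known functions outside the ribosome, RPL5 and RPL11 had log2 fold changes of −0.22 ± 0.14 and −0.05 ± 0.14 in the third comparison, and neither passed in the authors' deposited table. In the fourth, RPL11 fell by 0.71 ± 0.20 (adjusted p 0.0025) and RPL5 was at −0.38 ± 0.17 (adjusted p 0.0729) in the authors' deposited table. RPL11 had 10206 and 10906 normalised reads in the second numerator set, against 13281 and 19835 in the second reference set, and lost its call in limma without library 1 of the second numerator set (adjusted p 0.0886). RPL11 was at −0.39 and RPL5 at −0.23 in limma without library 2 of the second reference set. RPS6 had 17479 and 18124 normalised reads in the second numerator set, against 16985 and 17404 in the first reference set (0.00 ± 0.13, adjusted p 0.992 in the authors' deposited table). RPS3, a protein of the mRNA entry that also takes part in DNA repair, was at −0.23 ± 0.14 in the third comparison and fell by 0.50 ± 0.19 in the fourth (adjusted p 0.0319 in the authors' deposited table). That call was lost in limma without either library of the second numerator set or without library 2 of the second reference set. RPL10, which joins the large subunit late in its assembly, was at −0.25 ± 0.15 in the third comparison and fell by 0.66 ± 0.20 in the fourth (adjusted p 0.00386 in the authors' deposited table). RPL10 lost this call in limma without library 1 of the second numerator set (adjusted p 0.14) and was at −0.39 without library 2 of the second reference set.

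Members of both subunits were called. In the fourth comparison 14 of 32 small-subunit and 24 of 46 large-subunit members fell, with median log2 fold changes of −0.42 and −0.48, and in the third 6 and 8 fell, at −0.17 and −0.21, per the authors' deposited table. That table called 27.6% of genes of at least 2 CPM lower in the fourth and 26.7% in the third. The counts of the fourth are larger shares than these, and those of the third are smaller. Without library 2 of the second reference set, the medians of small-subunit and large-subunit members in limma were −0.14 and −0.24 in the fourth, against −0.14 for all 13622 genes. The spread between members was wider in the small subunit in the third comparison, with an SD of 0.35 against 0.26 in the authors' deposited table. The difference between subunits was not tested.

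Longer members had the lower fold changes in the third and the fourth comparison, but not in the first or the second. Human lengths are not analysed here, so the longest coding sequence of the mouse gene of the same name (GENCODE M21) stood in for it, found for all 78 members, from 138 to 1257 bases, and for 81.1% of the other genes of at least 2 CPM. Across the 78 members, which share libraries, the Spearman correlation of length with the log2 fold change was −0.45 in the third comparison, −0.32 in the fourth, 0.24 in the second and −0.02 in the first. Leaving out library 2 of the second reference set gave −0.40 in the fourth and 0.07 in the second, with limma fold changes. The 9 members under 300 bases, RPL37, RPS28 and RPL39 among them, had a median of 0.11 in the third comparison, and the 4 of 900 bases or more, RPS2, RPLP0, RPL3 and RPL4, had −0.53. Over 10792 other genes the correlation was −0.05 in the third comparison, 0.21 in the fourth, 0.42 in the second and 0.01 in the first, so that members and other genes had opposite signs in the fourth and the same sign in the second. The other genes had 0.12 in the fourth and 0.30 in the second without that library. Library 2 of the second reference set was higher than library 1 for short genes at large: the median log2 difference was 0.36 for 153 other genes under 300 bases and −0.30 for 1705 of 3000 bases or more, with a correlation of −0.45. Members of at least 300 and under 450 bases were higher there by 0.47, against 0.29 for 421 other genes of that length. In the fourth comparison 27 members of that length had a median of −0.54, against −0.49 for 421 other genes. In the other classes the medians lay further apart: members under 300 bases had −0.18, against −0.46 for other genes, those of 600 to under 900 bases −0.50, against −0.39, and those of 900 bases or more −0.73, against −0.28 for other genes of 900 to under 1500 bases. Members of 450 to under 600 bases had −0.41, against −0.34. The part of length in the members' result was not tested.

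**Figure D5:**
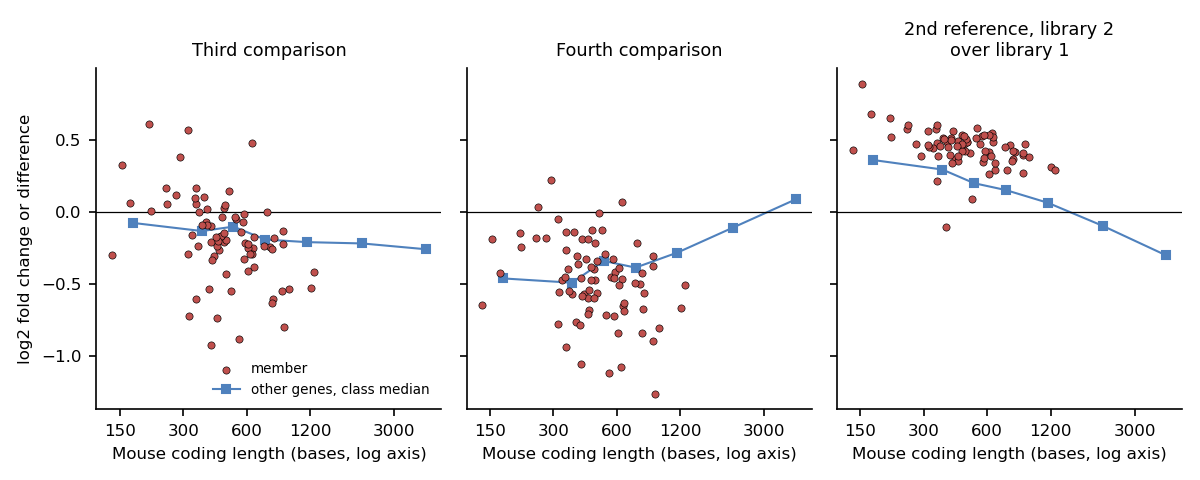
Log2 fold change of 78 ribosomal protein genes (points) against the coding length of the mouse gene of the same name (log axis) in the third and the fourth comparison, and the log2 difference between the libraries of the second reference set; squares are medians of other genes by length class. Members under 300 bases have a median of 0.11 in the third comparison and those of 900 bases or more −0.53, and in the last panel the class medians of other genes run from 0.36 to −0.30.

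Some members share sequence with other rows, and how the authors' counting placed such reads is not stated. Processed copies of ribosomal protein genes held reads in 268 rows. The recovered reads given here are not scaled to library size. RPL21 had 610 and 506 of them in the second numerator set, against 972 and 886 in the first reference set. Its log2 fold change in the third comparison was −0.43 ± 0.19 and did not pass (adjusted p 0.0657 in the authors' deposited table). Its copy RPL21P16 had 843 and 724 in the second numerator set, against 2849 and 911 in the first reference set. RPL39 had 315 to 620 recovered reads per library beside 2421 to 4431 on its copy RPL39P3. RPS28 had 122 to 283 beside 3006 to 5679 on its copy RPS28P7. RPSA and RPS2 are uncertain too, since their copies RPSAP58 and RPS2P5 held 3910 to 9296 and 2518 to 7244 reads. RPS10 had few reads, 35.6 to 77.5 after normalisation. Processed copies tested in the third comparison numbered 177, of which the authors' deposited table called 11 higher and 14 lower. That table called 14.8% of all genes tested there higher and 16.1% lower. For the fourth it tested 185 copies and called 13 higher and 30 lower, beside 17.2% and 17.5% of all genes tested. None of these counts of copies is a larger share than that of all genes. RPL10L, RPL39L and EEF1G were not analysed here.

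Ribosomal protein genes that the symbol rule leaves out were few. Of 7 tested, RPL22L1 and RACK1 among them, 2 fell in the third comparison and 2 in the fourth in the authors' deposited table. These counts are near the shares of genes of at least 2 CPM called lower there, 26.7% and 27.6%. RACK1, a scaffold on the head of the small subunit, fell by 0.58 ± 0.14 in the third and 0.76 ± 0.18 in the fourth, in the authors' deposited table. RPL22L1 fell by 1.07 ± 0.18 in the third (adjusted p 3.70e-08 in the authors' deposited table), where RPL22 was at −0.07 ± 0.19.

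Genes that make and use ribosomes were counted from lists chosen with earlier results of these data known. Among all genes of at least 2 CPM, the third comparison called 26.7% lower and 16.9% higher with a median of −0.16, and the fourth called 27.6% lower and 19.3% higher with a median of −0.15, per the authors' deposited table. Of 36 ribosome assembly factors, 14 fell in the third comparison and 11 in the fourth and 1 rose in each, and the median gene was at −0.29 and −0.32 (log2), per the authors' deposited table. The 11 of the fourth are near the share of genes at large. NPM1, a nucleolar chaperone that carries ribosomal particles, fell by 0.76 ± 0.13 and 1.42 ± 0.17 in the third and the fourth, and NCL and BOP1 fell by 0.62 ± 0.13 and 1.03 ± 0.17 in the third, in the authors' deposited table. NOP2, an rRNA methyltransferase, rose by 1.68 ± 0.38 in the third in the authors' deposited table. Of 12 genes of RNA polymerase I and its factors, which transcribe ribosomal DNA, 7 fell in the third and 6 in the fourth, and 1 rose in each. UBTF fell by 0.96 ± 0.18 in the third and RRN3 rose by 0.97 ± 0.19 in the fourth, in the authors' deposited table.

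Of 13 subunits of eIF3, the scaffold of initiation, 6 fell in the third comparison and 8 in the fourth, with the median subunit at −0.33 and −0.51 (log2) per the authors' deposited table. Of 20 other initiation factors, 10 fell in the third and 11 in the fourth and 3 rose in each, with EIF2S3 lower by 0.94 ± 0.14 and EIF1 higher by 0.84 ± 0.14 in the third in the authors' deposited table. Of 5 elongation factors, 3 fell in the third and 2 in the fourth. EEF2, which moves the ribosome along the mRNA, fell by 0.63 ± 0.13 and 0.63 ± 0.16 in these comparisons in the authors' deposited table. Among 5 other genes known for TOP mRNAs, 4 fell in each, and 1 rose in the fourth. PABPC1, the poly(A)-binding protein, fell by 0.77 ± 0.14 and 1.19 ± 0.16 in the third and the fourth, and HNRNPA1, an RNA-binding splicing factor, by 1.62 ± 0.18 in the fourth, in the authors' deposited table.

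Of 12 genes that control the translation of TOP mRNAs or the number of ribosomes, 4 rose in each, while 5 fell in the third and 2 in the fourth, in the authors' deposited table. SESN2, a stress-induced inhibitor of mTORC1, rose by 2.44 ± 0.17 and 1.73 ± 0.19, and RPS6KB2, an S6 kinase, fell by 0.93 ± 0.21 and 1.33 ± 0.23, in these comparisons in the authors' deposited table. Of 12 genes of ribosome rescue and quality control, 6 fell in the third and 3 in the fourth. GCN1, which senses collided ribosomes, fell by 0.57 ± 0.14 in the third in the authors' deposited table. In the fourth comparison without library 2 of the second reference set, the median log2 fold change of all genes fitted with limma was −0.14. It was then −0.19 for assembly factors, −0.39 for genes of RNA polymerase I, −0.43 for eIF3 subunits and −0.52 for other initiation factors. Elongation factors had −0.25, other genes of TOP mRNAs −1.14, control genes −0.07 and rescue genes −0.16. The authors' deposited table called no gene of these lists in the first or second comparison, where 0 genes in the first, and 2 higher and 6 lower in the second, had an unadjusted p under 0.05. The share of all genes at that unadjusted p is not given here.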

How the data were processed

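Per the labels, total RNA was sequenced by a commercial service (Novogene, Illumina NovaSeq), with a selection by an absolute log2 fold change above 1 and p below 0.05. The sources used here do not give the aligner, the counting tool or the genome build. The single deposited table holds 4 comparisons of 7 columns. Per the file headers they hold the identifier with its symbol, the base mean, the log2 fold change with its standard error, the statistic, and the p-value before and after adjustment. Base means are the authors' normalised reads, averaged over the libraries compared. The log2 values and standard errors are the authors' deposited ones, and the test statistic is a deposited score. The p-values are the authors' too, per the file headers. No column was tied to one of the 10 samples.

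Calls are the deposited adjusted p under 0.05. Each library adds whole reads times a fixed step to a base mean, so the reads of 8 libraries were solved from 3 comparisons with integer lattice reduction (Python 3.11.15, sympy 1.14.0), and the remaining comparison served as the check. Of the 16 ways to order libraries within sets, 1 predicted all 200 genes tried and the others none. Recovered reads of at least 2 CPM, plus 0.5, were fitted on the log2 scale with limma 3.58.1 (R 4.3.3, trend), with Benjamini-Hochberg adjustment. Both steps were tested on simulated data. Fold changes from recovered reads differed from the deposited ones by a median of at most 0.0013 (log2) per comparison. The planned count tests could not be run, since no counts of a named sample are given. limma, the scaling to total reads, leaving out libraries and the fit over 8 libraries were added after the data had been seen.

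The members and gene lists were chosen with earlier results of these data known. Named members are, per comparison, the 5 called with the smallest p in each direction, the 3 highest and lowest fold changes, the 5 highest and lowest base means, the paralogues, the stalk proteins, and RPSA, RPS6, RPL5, RPL11, RPS3, RPS4X and RPL10. The other called members of the third comparison, RPL13A, RPL22 and the processed copies were named after their values were seen. Some genes that this rule picks are not reported here. Human gene sequences are not analysed here.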

Additional observations from a re-analysis of the deposited data

Results flagged for a closer look

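Processed copies of the ribosomal protein genes lie outside the rule for members, and no count of members rests on their rows. Copies called in the third and the fourth comparison are counted above, and the reads recovered for 268 copies are listed here. They made up 0.569% to 0.909% of a library's reads, with the highest value in library 2 of the second reference set, which also has the highest share for the genes themselves. Per 100 reads of the genes there were 15.6 to 16.7 reads on copies. RPL13AP5 held 8576 to 22428 reads per library. RPL9P7 varied within sets, with 144 and 1364 reads in the second numerator set, and 2856 and 4630 in the first reference set, not scaled to library size.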

How the results depend on the processing

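No paired analysis was possible because the columns carry no sample and the library numbers within a set have no meaning. DESeq2, edgeR and a replicate block were planned for counts per sample and were not run. Adjusted p under 0.01 left 23 members lower in the fourth comparison. The labels' selection took 0 higher and 0 lower in the third, 4 lower in the fourth and 1 lower in the second. Centring on the median gene left 22 lower in the fourth. Shares of all genes are not given here for the stricter adjusted p, the labels' selection or centring. These counts can therefore not be set against genes at large. With total reads as the scale, limma called 7 higher in the third, beside 25.8% of all genes. In the fourth it called 1 higher and 21 lower, beside 28.7% and 22.4% of all genes. The median member was then at −0.25, against 0.06 for all genes fitted. Leaving out each library in limma, members called lower ranged from 0 to 5 in the first comparison, 0 to 20 in the second, 4 to 22 in the third and 9 to 70 in the fourth (25 without library 2 of the second reference set). Members called higher ranged from 0 to 3 in the third and 0 to 2 in the fourth, and were 0 in the others. The 5, 20, 22 and 70 members lower stand beside 12.8%, 13.8%, 28.6% and 33.2% of all genes called lower in the same fits. The 4 and 9 stand beside 15.9% and 17.4%, and the 25 beside 29.7%. Of 78 members, 4 and 9 are smaller shares than those of genes at large, and 70 is a larger one. All genes called higher ranged from 10.4% to 19.7% in the third and 14.6% to 25.2% in the fourth. Medians of members ranged from −0.67 to −0.22 in the second and −0.70 to −0.22 in the fourth. For the reference sets against each other they ranged from 0.012 to 0.46. The other 130 values for whole comparisons stayed within 1.5 times the count, or within 0.187 (log2), the spread of the median member between libraries of a set. Of 55 calls of single members, centring kept 36, no filter on low values kept 50 and total reads kept 36, and none changed sign. With 2 libraries a side, a comparison with 1 left out assumes that the lone library varies like the pair. Without library 1 of the second numerator set 42 of the 55 calls were lost, and the cause was not tested.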
